A study of Mus musculus with 6 samples.

Results

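Collagen-high matrix fibroblasts were defined here as cells that spent at least 2% of their UMIs (unique transcript counts) on 3 genes of the fibrillar collagens I and III, Col1a1, Col1a2 and Col3a1. They made up 167 of the 34834 cells kept from mouse dorsal skin, and 100 of the 167 came from 1 library, the 52-week untreated one. A member also had at least 10 collagen UMIs, more collagen than Krt5 and Krt14 UMIs, fewer than 2 UMIs of the endothelial genes Pecam1 and Cdh5, and fewer than 2 UMIs of the mural genes Rgs5, Notch3, Kcnj8, Abcc9 and Myh11. The comparison group was 3482 other fibroblasts: cells below the collagen threshold with at least 4 of 12 fibroblast markers detected, more UMIs of these markers than of Krt5 and Krt14, the same endothelial and mural limits, and no UMI of Ptprc, the pan-leukocyte gene. Those 12 markers are Col1a1, Col1a2, Col3a1, Pdgfra, Dcn, Lum, Col6a1, Col5a1, Dpt, Mfap5, Serpinf1 and Fbln1. They in part chose the comparison group but were not required of the members. Apart from the 3 collagens of the rule, they were not left out of the gene counts below.

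The skin came from wildtype male C57BL/6 mice aged 8, 26 or 52 weeks. At each age 1 library was made from skin dissociated directly after collection, and 1 from skin first treated ex vivo with PBMC-sec, the secretome of gamma-irradiated peripheral blood mononuclear cells. Each of the 6 libraries pooled 3 animals, so a group has 1 sample, no replicate error exists and no p-value is given. Treated skin was also held outside the body, so the secretome and the holding cannot be told apart; the labels give no dose or length of treatment, and do not say whether treated and untreated pools of an age shared animals. Lists of 6 values below go from the youngest to the oldest skin, and at each age the untreated library comes before the treated one.

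Fibroblasts of the dermis make the collagen-rich matrix that gives skin its tensile strength. Procollagen chains are hydroxylated and folded in the endoplasmic reticulum with dedicated chaperones, trimmed outside the cell, assembled into fibrils with collagens V and VI and small proteoglycans, and cross-linked. Skin fibroblasts also respond to injury and to cytokines by secreting chemokines that draw neutrophils and monocytes, and specialised fibroblasts of the dermal papilla signal to the hair follicle.

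Total UMIs per library ranged from 19956655 to 40211991 over 4083 to 9520 deposited barcodes. In the 8-week untreated library 4073 of 9237 kept barcodes belonged to groups with near-identical profiles, but none of its 8 collagen-high cells did. In the 52-week untreated library 51 barcodes did, 3 of them collagen-high and 47 of them other fibroblasts. Among kept cells 690 barcode sequences occurred in more than 1 library; 5 collagen-high cells carried such a sequence and no sequence was shared by a pair of collagen-high cells.

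The label did not hold for Thbs4, and its collagen part was set by the rule and could not fail. Of the 100 members of the 52-week untreated library 97 lay in a fibroblast cluster of the Leiden clustering described below. Clusters were named as fibroblast from the 12 markers above, which include the 3 collagens of the rule. The other 3 members lay 1 each in cluster 2, led by Ptgds, Csf2 and Dct, cluster 26, led by Cd7, Rgs1 and Cd3g, and cluster 28, led by Gm13889, Rgs5 and Tagln. The member in cluster 26 had 1 Sparc UMI. Dcn, which encodes the fibril-binding proteoglycan decorin, stood at 5104 CPM (a gene's share of the UMIs summed over a group of cells, scaled to 1e+06 UMIs) in the 100 members of the 52-week untreated library and had a UMI in 91 of them. Ptprc had 1 UMI in 1 of the 100 cells, and Pecam1 and Cdh5, of which the rule allowed 1 UMI a cell, had 0. Thbs4, which encodes thrombospondin 4 and was given as a marker of these cells, had a UMI in 14 of the 100 members and in 144 of the 653 other fibroblasts (22.1%). Its 425 UMIs, 31.5% of them in 1 cell, gave 720 CPM, against 502 CPM in the other fibroblasts. In the members of the 6 libraries Thbs4 stood at 183, 0, 18.3, 0, 720 and 0 CPM. Of the genes that mark tendon cells, Scx, Mkx, Kera, Chad and Comp were at 0 UMIs, a count that allows up to 5.08 CPM each. Tnmd, which encodes the tendon-associated tenomodulin, had 43 UMIs in 12 of the 100 cells.

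In the 52-week untreated library 12 keratinocyte markers summed to 1035 CPM in the collagen-high cells, 1125 CPM in the other fibroblasts and 19427 CPM in the remaining cells. In members of the 6 libraries their sum ranged from 1035 to 2146 CPM; the highest was in the 52-week PBMC-sec library, whose other fibroblasts stood at 809 CPM. The 6 lymphatic endothelial markers summed to 432, 552 and 103 CPM in the same 3 groups of the 52-week untreated library, with all but Pdpn, which fibroblasts also express, at 0 in the members. In the 52-week PBMC-sec library they stood at 312 CPM in members and 1501 CPM in other fibroblasts. Macrophage markers summed to 61.0, 50.5 and 780 CPM in the 3 groups of the 52-week untreated library, with C1qa, C1qc, Adgre1, Aif1 and Cd14 at 0 in the members. Neutrophil markers summed to 35.6, 34.8 and 702 CPM, with Csf3r, Retnlg and Ly6g at 0. The part of such RNA in the results was not tested.

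The collagen share of fibroblasts was high in the 52-week untreated library as a whole, and the members were its upper end. The collagen-high cells numbered 8, 10, 24, 9, 100 and 16 in the 6 libraries. They were 0.0866%, 0.183%, 0.430%, 0.152%, 2.71% and 0.323% of all cells, with an exact 95% binomial interval of 2.21 to 3.29% for the fifth share. Of all fibroblasts they were 1.80%, 1.68%, 3.74%, 1.69%, 13.3% and 2.35%, with intervals of 10.9 to 15.9% for the 52-week untreated and 2.41 to 5.51% for the 26-week untreated library. These intervals cover counting error only and say nothing of the spread between animals. The part was also chosen with earlier results of these data known, so the intervals are no test between libraries. In the other fibroblasts, below the threshold, the median collagen share was also highest in the 52-week untreated library, at 0.355%, against 0.143%, 0.0709%, 0.112%, 0.0623% and 0.0491% elsewhere. Each untreated library was above the PBMC-sec library of its age. Fibroblasts in all numbered 445 to 753 cells in each library.

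**Figure D1:**
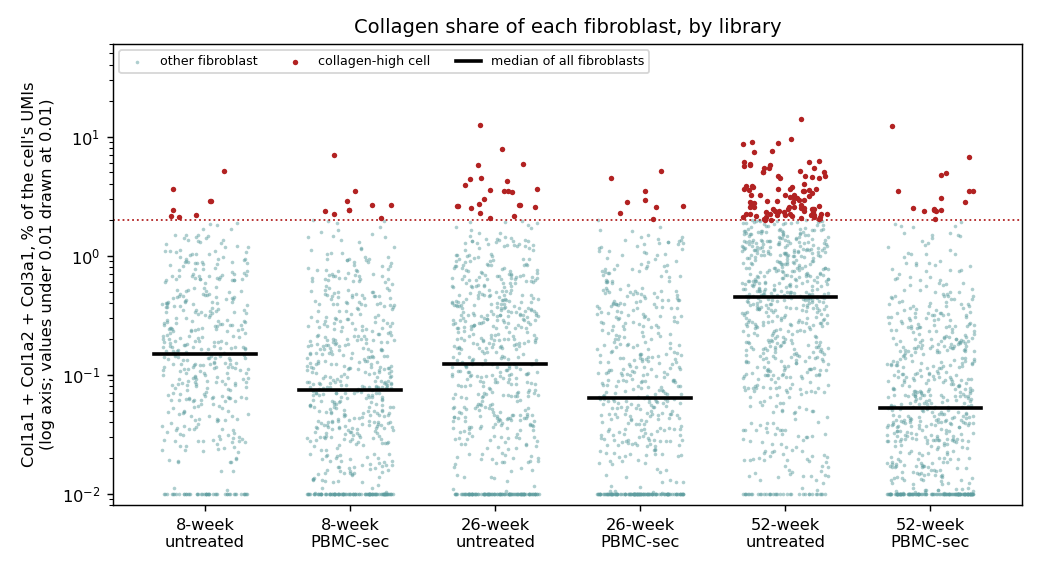
Share of each fibroblast's UMIs that came from Col1a1, Col1a2 and Col3a1 (log axis, percent), 1 column per library, with collagen-high cells in red, other fibroblasts in blue-green and the median of all fibroblasts as a bar. The 52-week untreated column has the highest median, 0.453%, and its cells run through the 2% line with no gap.

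No gap separated the members from the rest. In the 52-week untreated library 52 other fibroblasts had 1.5 to 2% collagen and 33 members had 2 to 2.5%; 28 members had 4% or more, and the highest had 14.2%. The median member there had 2.96% collagen and 4636 UMIs, against 0.355% and 5173 UMIs in the median other fibroblast. The 3 collagens that made the rule are given only as a description. Col1a1 stood at 15374, 13896, 21638, 17770, 19830 and 20085 CPM in members and at 875, 514, 732, 578, 2699 and 434 CPM in other fibroblasts. Col1a1 in members thus lay within 13896 to 21638 CPM across ages and treatments. The rule sets a floor for the 3 collagens together and no ceiling. The other fibroblasts of the 52-week untreated library held over 3 times the Col1a1 of those of any other library. Col3a1, the collagen III chain that is mixed into collagen I fibrils, varied more in members: 6360, 2119, 5478, 2349, 9859 and 9618 CPM, so both 52-week libraries stood above the 4 younger ones.

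Sequences before the start sites of some genes described below are shown here, ahead of their values. The 3 chemokine genes Cxcl1, Cxcl2 and Cxcl3, neighbours on chromosome 5, encode attractants of neutrophils; in the 52-week untreated library Cxcl2 and Cxcl3 were over 2-fold lower in collagen-high cells and Cxcl1 had a log2 ratio of -0.78. The windows come from the RefSeq promoter table (GRCm38.p6), plus strand, 60 bases each. The longest run of letters common to all 3 in the 250 bases before the start is the 11-base GGGAATTTCCC, in capitals below. It was noticed in a search of these promoters for sites of NF-kB, a transcription factor of the inflammatory response, that was made after the values of these genes were seen. NF-kB sites are known to have this general form. The first base of the run lies 71, 97 and 73 bases before the respective start.
Cxcl1, chr5:90891135-90891194: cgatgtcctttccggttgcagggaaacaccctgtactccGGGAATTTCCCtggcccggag
Cxcl2, chr5:90903769-90903828: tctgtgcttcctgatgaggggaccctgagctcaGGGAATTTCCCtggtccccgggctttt
Cxcl3, chr5:90785991-90786050: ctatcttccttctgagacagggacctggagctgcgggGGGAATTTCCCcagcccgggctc
In the 250 bases before each start, the 11-base run, which reads differently on its other strand and was searched on both, was found in 14 of all 32851 promoters (0.0426%). That these 3 hold it follows from how it was chosen. Of the 2449 genes past the filter on low values that had an entry, no other gene held it.

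The AP-1 motif TGANTCA, searched in the same way, stood on both sides of the comparison. It lay 90 bases before the start of Col6a1, which encodes a chain of the microfibrillar collagen VI and was higher in collagen-high cells, and 35 bases before that of Mmp13, which encodes a collagenase and was lower. Capitals mark the motif, and Col6a1 is on the minus strand.
Col6a1, chr10:76726105-76726164: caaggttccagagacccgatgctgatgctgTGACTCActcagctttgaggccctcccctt
Mmp13, chr9:7272444-7272503: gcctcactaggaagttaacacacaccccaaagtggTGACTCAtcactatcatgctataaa
It was found in 5 of 56 genes that were 2-fold higher and had an entry, in 3 of 28 that were 2-fold lower, and in 154 of the 2449 genes past the filter that had an entry.
A match is a description of these letters, and no binding was measured.

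Within the 52-week untreated library, collagen-high cells differed from the other fibroblasts in a matrix program outside the 3 collagens that chose them. Of 3098 genes with at least 20 UMIs in both groups together and at least 50 CPM in either, 74 (2.39%) were at least 2-fold higher in the collagen-high cells and 38 (1.23%) at least 2-fold lower; the genes of the rule were left out. Ratios were taken as log2 of CPM with 5 CPM added, which understates the ratio of low genes. Both groups come from the library and the contrast used by the rule, so these counts are a description.

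Sparc, on chromosome 11 (55394500-55423183, GENCODE vM21 on GRCm38), encodes the collagen-binding matrix protein osteonectin and was the highest-expressed gene among the 74. It stood at 14459, 21842, 20099, 30009, 11383 and 10984 CPM in the members of the 6 libraries. In the other fibroblasts it stood at 2611, 2112, 2155, 2328, 3060 and 1296 CPM. Sparc was among the 5 genes (0.161% of 3098) at least 2-fold higher in all 6 libraries. Its log2 ratio ran from 1.89 in the 52-week untreated to 3.69 in the 26-week PBMC-sec library. A Sparc UMI was found in 99 of the 100 members, in 588 of the 653 other fibroblasts and in 233 of 461 keratin-rich cells. Thinned to 1000 UMIs a cell, the shares were 96.4%, 71.3% and 16.0%. Whether the keratin-rich cells made this RNA or took it up from outside was not tested.

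**Figure D2:**
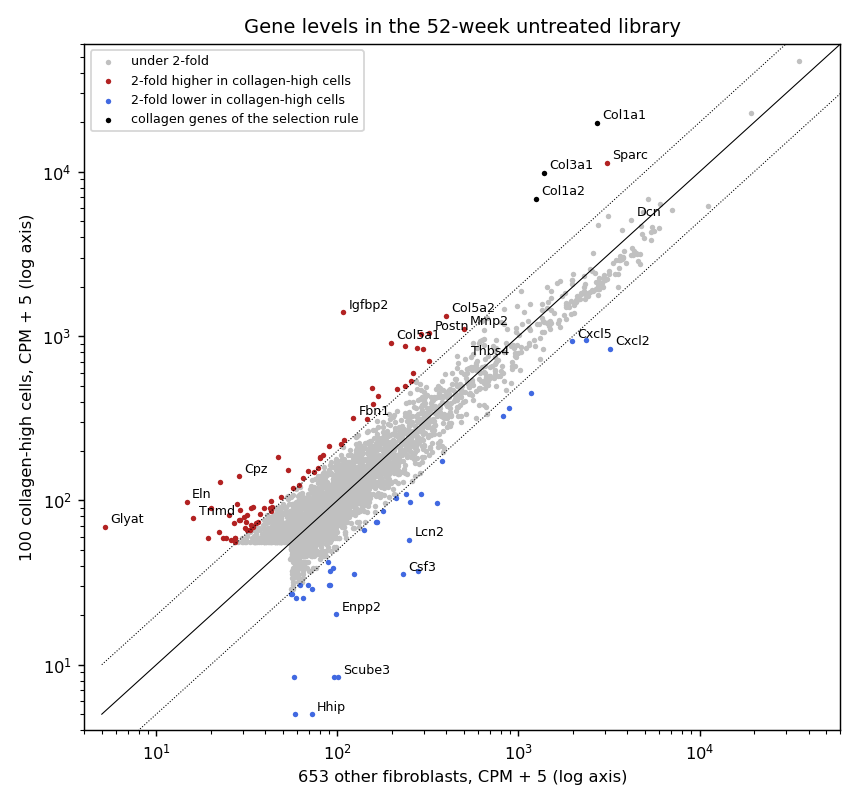
Level of each gene in the 100 collagen-high cells (y axis) against the 653 other fibroblasts (x axis) of the 52-week untreated library, as CPM + 5 on log axes, with dotted lines at 2-fold. Matrix genes such as Sparc, Col5a2 and Postn lie above the upper line, and Cxcl2, Csf3 and Hhip lie below the lower one.

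Collagen V, a minor fibrillar collagen that sits in the core of collagen I fibrils and limits their width, was higher through all 3 of its measured chains. Col5a1 stood at 908 CPM (exact Poisson 95% interval 832 to 988) against 193 CPM in other fibroblasts, a log2 ratio of 2.20. Col5a2 followed at 1328 against 392 CPM (1.75), and Col5a3 at 830 against 293 CPM (1.49). The median of the list was 1.75, beside 0.03 over all genes past the filter. Across the 6 libraries Col5a2 stood at 961, 367, 257, 606, 1328 and 995 CPM in members and 115, 110, 56.1, 61.3, 392 and 196 CPM in other fibroblasts. It was over 2-fold higher in each library, although 9 to 21 UMIs stand behind the members' values at 8 and 26 weeks.

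Of 13 other measured collagens 6 were 2-fold higher and 1 lower, with a list median of 0.95. Collagen VI forms beaded microfilaments around fibres and cells, and its 3 main chains stood together: Col6a1 had a log2 ratio of 1.88 (867 against 232 CPM), Col6a2 of 1.85 (1030 against 283 CPM) and Col6a3 of 1.62 (837 against 269 CPM). Col7a1 (1.70), which encodes the anchoring-fibril collagen, Col16a1 (1.10) and Col14a1 (1.09) were the other 3. Col12a1, a fibril-associated collagen of tension-bearing tissue, was just short of it at 0.95 (520 against 268 CPM). The 1 lower gene, Col23a1 (-1.34), encodes a transmembrane collagen, and its ratio turned to 0.86 once the other fibroblasts of cluster 24, described below, were left out.

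The machinery that makes collagen was less uneven than collagen itself. Of 26 measured genes for folding, processing and cross-linking 7 were 2-fold higher and none lower, with a median log2 ratio of 0.48. Besides Sparc these were Fkbp10 (1.26), a collagen chaperone of the endoplasmic reticulum, Pcolce (1.20), which speeds removal of the C-propeptide, Adamts2 (1.10), which cleaves the N-propeptide, Rcn3 (1.07), and, right at the 2-fold mark, Loxl3, a cross-linking oxidase, and Creb3l1, a transcription factor for secretory genes. Serpinh1, the collagen chaperone HSP47, stood at 1461 against 823 CPM (0.82) and Lox, the main lysyl oxidase, at 532 against 374 CPM (0.50). General folding enzymes stood level or lower: P4hb, a subunit of prolyl hydroxylase, at 1372 against 1571 CPM (-0.19) and Ppib at 611 against 738 CPM (-0.27). Among 20 chaperones and targets of the unfolded protein response 0 were higher and 1, Creld2 (-1.35), was lower; Hspa5, the ER chaperone BiP, stood at 6802 against 5207 CPM (0.39) and Hsp90b1 at 2845 against 4548 CPM (-0.68).

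Elastic fibres, which let skin recoil, had 4 of 13 measured genes 2-fold higher and a median of 0.57. Eln, which encodes the elastic core protein tropoelastin, stood at 93.1 CPM (70.2 to 121) against 9.70 CPM, a log2 ratio of 2.74, with a UMI in 19 of 100 members and 26 of 653 other fibroblasts. Mfap2 (1.76), Fbn1 (1.37, 312 against 117 CPM) and Fbln1 (1.12), all parts of or partners of microfibrils, were the other 3. Eln was low everywhere, with 1 to 10 UMIs in the members of each other library.

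Small leucine-rich proteoglycans, which coat fibrils, were abundant in all fibroblasts and differed little, apart from Aspn. Of 5 measured, 1 was higher: Aspn, which encodes asporin, stood at 84.7 against 15.0 CPM (2.17). Dcn stood at 5104 against 4174 CPM (0.29), Bgn, which encodes biglycan, at 2379 against 2001 CPM (0.25) and Lum, which encodes lumican, at 464 against 285 CPM (0.69). In the members of the 5 other libraries combined, set against their own libraries' other fibroblasts, the ratio of Bgn was 1.22 and that of Lum 1.48.

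Among 17 measured matricellular and adhesive genes 4 were higher, 1 lower, and the median was 0.38. Postn, which encodes the matricellular periostin, stood at 1035 CPM (954 to 1120) against 318 CPM, a log2 ratio of 1.69. Tnn, which encodes tenascin N, stood at 178 against 42.1 CPM (1.96), but 49.5% of its 105 UMIs in members came from 1 cell. Tnxb, the tenascin that spaces fibrils, had a ratio of 1.09 and Ccn2, a growth factor partner, 1.60 (83.0 against 24.02 CPM, from 49 UMIs). Fn1, which encodes fibronectin, missed the 2-fold mark at 1231 against 628 CPM (0.97). Vcan, a large hydrated proteoglycan, was the lower one at 105 against 284 CPM (-1.39), and its ratio was 0.074 without cluster 24.

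Contractile genes that mark myofibroblasts were not 2-fold apart in any of the 6 measured, with a median of -0.07. Acta2, smooth muscle actin, stood at 57.6 against 34.4 CPM (0.67), with 3 or more UMIs in 2 of 100 members. Tagln, which encodes transgelin, stood at 66.0 against 61.3 CPM (0.10). In basement membrane genes, 0 of 7 were 2-fold apart and all 7 ratios were above 0, with a median of 0.57; Nid1 had 0.68 and Hspg2, which encodes perlecan, 0.84. Of 26 matrix proteases and inhibitors 2 were higher and 3 lower. Mmp2, a gelatinase, stood at 1102 against 496 CPM (1.15), while the stromelysin Mmp3 (-1.31) and the collagenase Mmp13 (-1.04) were lower.

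Among the growth factors, receptors and binding proteins, those past 2-fold included Igfbp2 and Sfrp2, which were higher, and Igfbp3, which was lower. Igfbp2, on chromosome 1 (72824503-72852474), gave the highest ratio of any gene not carried by a single cell. It encodes a binding protein of insulin-like growth factors. It stood at 1389 CPM (1295 to 1487) against 103 CPM in other fibroblasts, a log2 ratio of 3.69, from only 18 of the 100 members. After thinning, 17.9% of members, 6.27% of other fibroblasts and 0.222% of keratin-rich cells had an Igfbp2 UMI. In members of the 6 libraries Igfbp2 stood at 915, 40.7, 1191, 1061, 1389 and 936 CPM, against 77.7, 59.5, 76.7, 406, 103 and 231 CPM. The 8-week PBMC-sec library, with 1 UMI in 10 members, was the only one with the order turned. Cpz, a carboxypeptidase that binds Wnt proteins, stood at 135 against 23.6 CPM (2.30) and was over 2-fold higher in each of the 6 libraries, with 3 to 80 UMIs in the members. Tnmd had a ratio of 2.28 (72.8 against 11.0 CPM). Glyat (3.73) and Ifit2 (2.52) complete the 12 highest: all 38 Glyat UMIs lay in 1 member, and 91.8% of the 73 Ifit2 UMIs in 1 member, so they describe single cells. In all, 3 of the 74 genes had at least 50% of their UMIs in 1 cell.

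Inflammatory genes stood lower. Of 29 measured cytokines, chemokines and related genes 0 were 2-fold higher and 6 lower (Cxcl5, Cxcl2, Cxcl3, Csf2, Csf3 and Lcn2), with a median log2 ratio of -0.57. Summed, the list stood at 17384 CPM in the collagen-high cells of the 52-week untreated library and at 27673 CPM in its other fibroblasts. Cxcl2, on chromosome 5 (90903871-90905938), stood at 641, 570, 531, 1288, 833 and 644 CPM in the members of the 6 libraries and 4044, 10232, 5294, 6245, 3185 and 7619 CPM in the other fibroblasts. Cxcl2 was among the 8 genes (0.258% of 3098) at least 2-fold lower in all 6 libraries. Cxcl1 stood at 45.8, 1834, 586, 1326, 2726 and 1453 CPM in members, against 6027, 13474, 5617, 7530, 4672 and 6524 CPM; the 52-week untreated library had the highest value in members, the lowest in the others, and thus the smallest gap (-0.78). Csf3, which encodes the granulocyte growth factor, had 18 UMIs in 6 members, 30.5 CPM against 225 CPM (-2.70), and 0 or 1 UMI in the members of each other library.

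Other genes of the list did not reach 2-fold. Ptx3, an acute-phase pattern receptor, stood at 484 against 530 CPM (-0.13), Saa3, serum amyloid A, at 1368 against 2023 CPM (-0.56, 54.8% of its UMIs in 1 member), and Ccl2, which draws monocytes, at 1983 against 3528 CPM (-0.83). Of the 100 members 56 held 3 or more Cxcl1 UMIs and 21 held 3 or more Cxcl5 UMIs. Spp1, which encodes osteopontin, stood at 32.2 against 273 CPM (-2.90) and the iron carrier Lcn2 at 52.5 against 244 CPM (-2.12). Slc7a11, the cystine transporter of the NRF2 response, stood at 30.5 against 119 CPM (-1.81); on the NRF2 list 0 of 13 genes were higher and 2, Slc7a11 and Prdx1, lower.

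The lowest ratios belonged to genes of the dermal papilla, whose UMIs lay mostly in 1 group of comparison cells. Of 6 measured genes on that list 4 were lower and 1 (Tnn) higher, with a median of -2.90, or -2.84 with the genes at 0 UMIs set at their bound. Hhip, an antagonist of hedgehog, had 0 UMIs in members and was at least 13.2-fold lower, and Corin, a protease of the papilla, had 0 and was at least 10.5-fold lower, both against a floor of 3 counts. Rspo3, a Wnt amplifier, had 2 UMIs in members against 412, a raw ratio of 26.8 (exact 95% interval 7.37 to 222); Scube3 had 2 against 434, a ratio of 28.2 (7.77 to 234), and Pappa2 2 against 238, 15.5 (4.24 to 129). Enpp2 stood at 15.2 against 93.6 CPM (-2.29) and Serpine2, a protease inhibitor, at 91.4 against 348 CPM (-1.87). In the other fibroblasts 95.2% of the UMIs of Corin, Hhip, Rspo3, Scube3, Pappa2 and Enpp2 came from the 76 cells of Leiden cluster 24, a cluster that Crabp1, Serpine2 and Spon1 lead and that holds none of the 100 members. With cluster 24 left out of the comparison group, a choice made after these values were seen, 92 genes (2.99%) were 2-fold higher and 41 (1.33%) lower, and the ratios of Scube3 (0.18), Pappa2 (0.18), Enpp2 (0.36) and Serpine2 (0.15) were above 0. Those of Hhip (-0.42), Rspo3 (-0.33) and Corin (-0.25) stayed below 0 and were no longer 2-fold.

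Several lists showed no 2-fold difference or nearly none. Ribosomal protein genes had 0 of 20 past 2-fold and all 20 below 0, with a median of -0.33. Heat shock genes (0 of 12, median -0.03), immediate early genes of dissociation stress (0 of 21, median 0.22), glycolysis and hypoxia genes (0 of 18, median -0.17) and complement genes (0 of 6, median -0.13) likewise had none past 2-fold. Genes of the response to TGF-beta, the main inducer of matrix, had 1 of 12 higher (Ccn2), with a median of 0.25. Reticular and fascia markers had 2 of 10 higher (Gas6 and Tnxb) and papillary markers 0 of 7 higher and 1 lower (Col23a1), with medians of 0.38 and -0.18. Cell cycle genes had 0 of 4 higher and 1 lower (Ube2c), adipogenic genes 0 of 5 past 2-fold, and senescence genes 0 of 7 higher and 1 lower (Igfbp3).

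The 67 members of the 5 other libraries gave values from other cells than these. Against the other fibroblasts of their own libraries, 49 of the 74 higher genes could be measured. A measured gene had at least 50 CPM in the members or in the other fibroblasts of these libraries. Genes low in the other fibroblasts thus counted only where members were high, so this filter in part sets the outcome. Of the measured genes 49 of 49 were above 0 and 42 past 2-fold, where 6.57% of 2559 genes were 2-fold higher. Of the 38 lower genes 30 could be measured; 26 were below 0, 21 past 2-fold lower and 1 past 2-fold higher, where 7.62% of genes were 2-fold lower. These cells were chosen by the same collagen rule, so the values describe how the same choice turned out elsewhere. The genes at least 2-fold higher in each of the 6 libraries were Col5a2, Cpz, Pcolce, Col6a1 and Sparc (5 genes, 0.161%). On the same scale 8 genes (0.258%) were 2-fold lower in each, but 7 of them had 0 UMIs in the members of at least 1 library. With such a count set at a floor of 3 counts in that library, 6 were at least 2-fold lower in each library: Cxcl5, Cxcl3, Cxcl2, Mmp13, Csf2 and Csf3. Ptgis, which encodes prostacyclin synthase, and Fst, which encodes the activin antagonist follistatin, then reached 2-fold in 5 of the 6 libraries. Inflammatory genes were further apart in the other libraries, with 1 of 29 past 2-fold higher, 18 lower and a median of -1.12. Cluster 1, which Cxcl5 leads, held 2 of these 67 members, and its part in this gap was not tested.

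**Figure D3:**
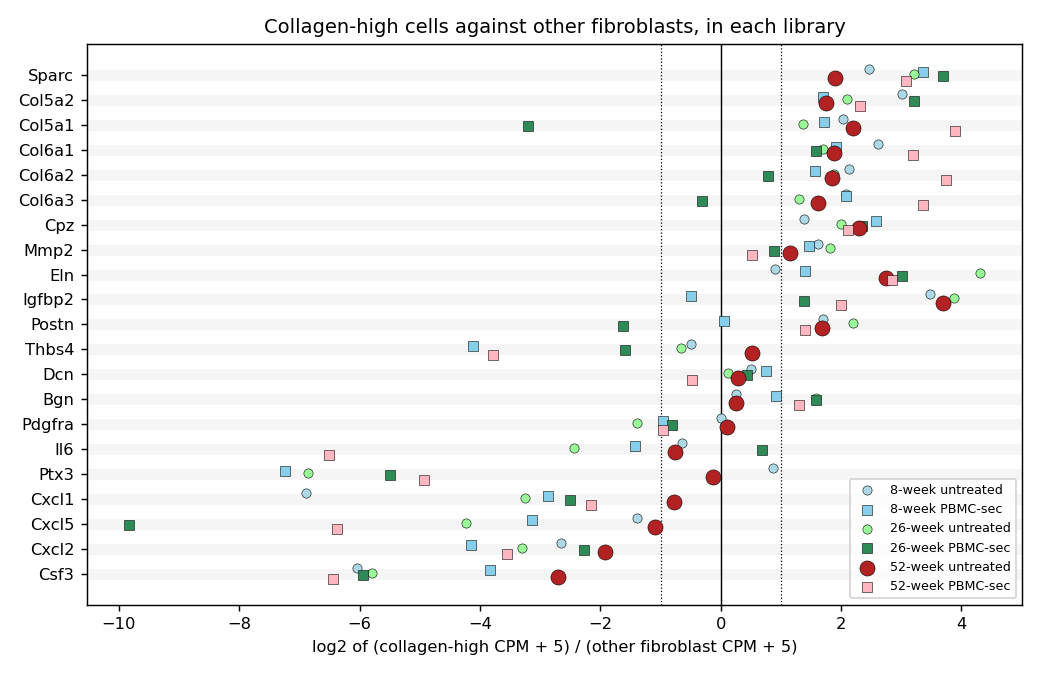
Log2 ratio of each gene's level in collagen-high cells over other fibroblasts (x axis, 5 CPM added to both), 1 row per gene, with a circle for each untreated and a square for each PBMC-sec library; the large red circle is the 52-week untreated one. Sparc, Col5a2, Col6a1 and Cpz lie right of 1 in all 6 libraries and Cxcl5, Cxcl2 and Csf3 left of -1; points far left rest on 0 or 1 UMI in members.

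Levels also differed between bands of collagen share below the threshold. With the 753 fibroblasts of the 52-week untreated library in 7 bands of collagen share, from under 0.1% (164 cells) to 4% or more (28 cells), Sparc stood at 945, 2129, 2626, 3600, 6268, 8829 and 18472 CPM. Col5a2 went from 95.2 CPM in the lowest band to 801 CPM at 1 to 2% and 1643 CPM in the highest. Csf3 stood at 454, 207, 152, 161, 102, 41.5 and 0 CPM, and Cxcl2 at 5164, 2614, 2862, 2735, 2057, 891 and 671 CPM. Cxcl2 was thus nearly level from 0.1 to 1% and had its widest gap in fold between the bands on either side of the 2% threshold. At the same step Col6a1 went from 393 to 878 CPM and Igfbp2 from 208 to 776 CPM. Dcn moved within 3807 to 6189 CPM. In the 5 other libraries combined, Sparc went from 843 to 21925 CPM and Cxcl2 from 9072 to 102 CPM over the same bands, and Cxcl5 went from 1397 to 343 CPM across the threshold. Per cell, the picture was weaker for chemokines than for matrix genes: over 690 fibroblasts of the 52-week untreated library thinned to 1000 UMIs, the Spearman rank correlation with collagen UMIs was 0.59 for Sparc, 0.40 for Col5a2, 0.34 for Postn, 0.06 for Dcn, -0.01 for Cxcl1 and -0.09 for Cxcl2. These cells share 1 library and collagen UMIs take up part of each cell's 1000, so the values are a description, and those of Dcn, Cxcl1 and Cxcl2 are near 0. After the same thinning 26.2% of members and 42.9% of other fibroblasts had a Cxcl2 UMI, against 9.11% of keratin-rich cells.

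**Figure D4:**
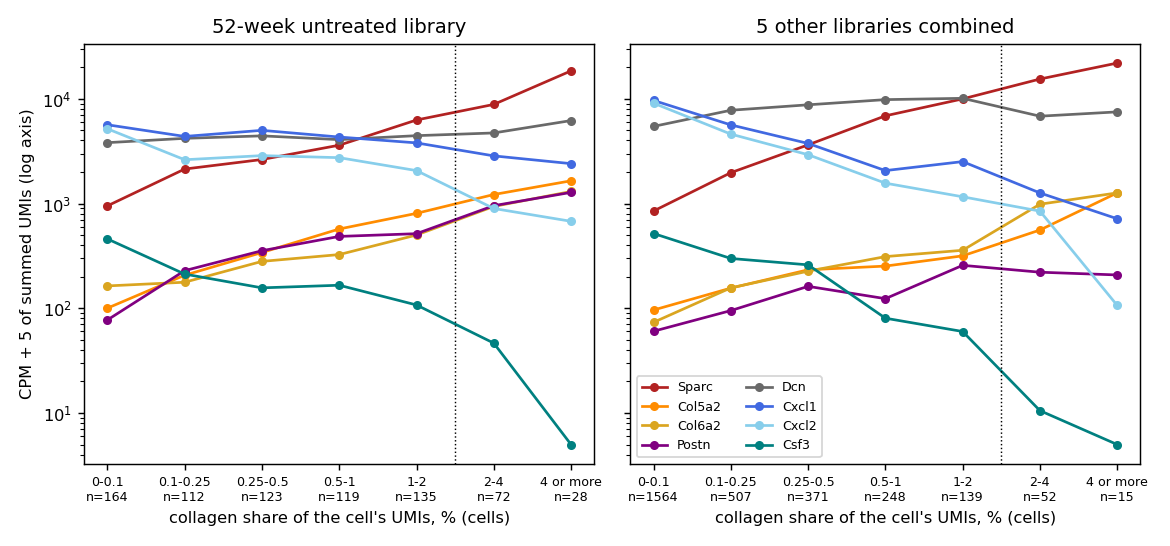
CPM + 5 (log axis) of 8 genes in fibroblasts grouped by the collagen share of their UMIs, for the 52-week untreated library (left) and the other libraries combined (right); the dotted line marks the 2% threshold and n is the number of cells. Sparc goes from 945 to 18472 CPM on the left while Csf3 goes from 454 to 0 CPM.

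Collagen-high cells of the 52-week untreated library lay mainly in 2 clusters, which shared some matrix genes and differed in others. Leiden clustering, which here grouped cells by their profile over 2000 variable genes, placed 74 of them in cluster 7 and 23 in cluster 25. No batch integration was made, so a difference between libraries cannot be told apart from one between cell types in these clusters. Cluster 7 is led by Col1a1, Thbs4, Col3a1 and Bgn and takes 454 of its 662 cells from the 52-week untreated library; cluster 25 is led by Saa3, Ctsk, Dcn, Lum and Igfbp2 and is spread over all libraries. The collagens and several genes below helped to form the clusters, so their differences between clusters are a description. Members were 18.7% of the fibroblasts of cluster 7 and 16.4% of those of cluster 25 in that library. Outside it, 49 of 67 members lay in cluster 25 and 15 in cluster 7.

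Some matrix genes stood at like levels in cluster 7 and cluster 25 members: Serpinh1 at 1463 and 1505 CPM, Thbs2, which encodes thrombospondin 2, at 1173 and 1473 CPM, and Aspn at 84.6 and 96.1 CPM. Cluster 7 members carried periostin and more chemokine RNA. Postn stood at 1425 CPM in them and 19.2 CPM in cluster 25 members. Col5a3 stood at 1156 and 32.0 CPM, Col12a1 at 716 and 19.2 CPM, and Thbs4 at 1025 and 6.40 CPM in the same order. Tnn (254 CPM) and Tnmd (104 CPM) were at 0 in cluster 25 members. Cxcl1 stood at 3570 and 96.1 CPM, Cxcl5 at 1306 and 32.0 CPM, and Ptx3 at 687 and 12.8 CPM, so these 3 chemokine and acute-phase genes lay mainly in cluster 7 members. Against the other fibroblasts of cluster 7, the 29 inflammatory genes had a median ratio of -0.09, with 2 past 2-fold higher and 2 lower.

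Cluster 25 members carried Igfbp2 and little chemokine RNA. Igfbp2 stood at 4944 CPM in them and 116 CPM in cluster 7 members. Serpina3n, a serine protease inhibitor, stood at 1915 and 31.4 CPM, Cpz at 480 and 12.1 CPM, Ctsk, the collagen-degrading cathepsin K, at 1953 and 230 CPM, Lum at 1198 and 210 CPM, and Mmp2 at 2658 and 568 CPM in the same order. Sparc was high in both, at 20265 and 8153 CPM. Against the other fibroblasts of cluster 25, 13 of 21 inflammatory genes were 2-fold lower and 0 higher, with a median of -1.30, where 10.6% of all genes were 2-fold lower.

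Igfbp2 and Postn seldom occurred in the same cell. Of the 100 members 17 had 3 or more Igfbp2 UMIs, 42 had 3 or more Postn UMIs and 2 had both. With Thbs4, 9 cells reached 3 UMIs; all 9 also had Postn and 0 had Igfbp2. Serpina3n reached 3 UMIs in 11 of the 17 Igfbp2 cells and in 17 of all 100 members. Cxcl1 did so in 33 of the 42 Postn cells and in 56 of all 100. In the 67 members of the other libraries 18 had 3 or more Igfbp2 UMIs and 4 Postn, with 1 cell holding both. With 4 Postn cells these libraries cannot show whether the 2 genes keep apart. There Serpina3n reached 3 UMIs in 10 of the 18 Igfbp2 cells and in 25 of all 67 members. Cxcl1 did so in 1 of the 4 Postn cells and in 14 of all 67. The counts are not corrected for depth, and the part of depth and cluster in them was not tested.

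**Figure D5:**
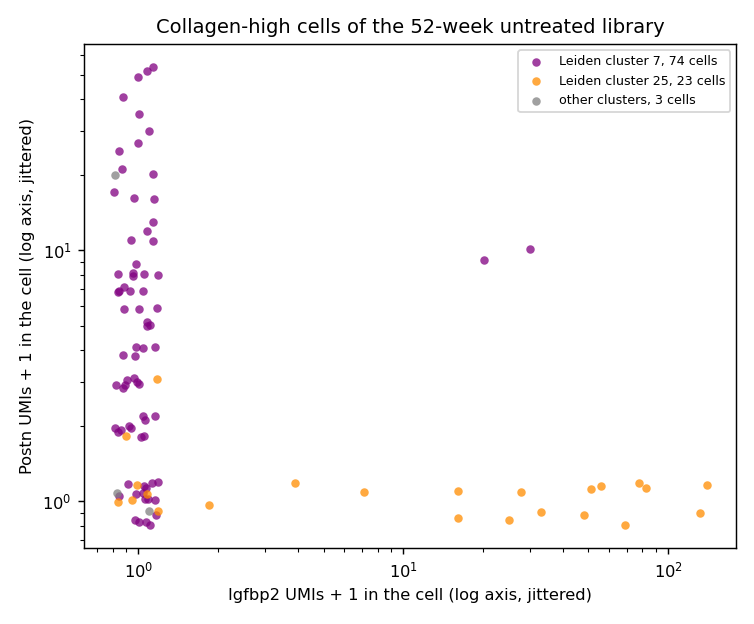
Igfbp2 (x axis) and Postn (y axis) UMIs + 1 in each of the 100 collagen-high cells of the 52-week untreated library, on jittered log axes and coloured by Leiden cluster. Cells lie along one axis or the other, and 2 cells hold 3 or more UMIs of both.

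Some matrix genes stood higher in members within both clusters, and others had the opposite direction within cluster 25. Against other fibroblasts of cluster 7, members had Col5a1 at 1074 against 245 CPM, Col6a1 at 842 against 234 CPM and Sparc at 8153 against 3374 CPM. Within cluster 25 the same genes stood at 423 against 90.2 CPM, 871 against 285 CPM and 20265 against 5033 CPM. Postn was higher within cluster 7 (1425 against 442 CPM) and lower within cluster 25 (19.2 against 122 CPM). Col5a3 was likewise higher within cluster 7 (log2 ratio 1.45) and lower within cluster 25 (-1.29). Tnn and Tnmd were higher within cluster 7 (2.80 and 2.79) and had 0 UMIs in cluster 25 members, whose other fibroblasts stood at 9.50 and 31.7 CPM. Col12a1 stood at 19.2 against 76.0 CPM (-1.74) and Lox at 51.2 against 104 CPM (-0.96) within cluster 25. The cluster 25 values of Postn, Col5a3, Tnn, Tnmd, Col12a1 and Lox rest on 0 to 8 UMIs in members. Serpina3n stood at 31.4 against 47.2 CPM within cluster 7. The counts of 2-fold genes were 138 higher (4.3%) and 40 lower (1.25%) within cluster 7, and 198 higher (6.68%) and 313 lower (10.6%) within cluster 25, where only 23 cells stand behind the members' values.

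Age and treatment could be set side by side only as values, since 2 libraries held 20 or more members. Within members the 2 chains Col5a1 and Col6a2 stood higher in both 52-week libraries than at 8 or 26 weeks: Col5a1 at 908 (untreated) and 1034 CPM (PBMC-sec) against 0 to 275 CPM, and Col6a2 at 1030 and 1931 CPM against 189 to 595 CPM. This was not particular to members. In other fibroblasts the summed fibrillar collagens outside the rule stood at 897 and 385 CPM at 52 weeks, against 134 to 229 CPM in the younger libraries. The list of other collagens stood at 2099 and 1207 CPM in them, against 698 to 1165 CPM. In members Sparc went the other way, with 11383 and 10984 CPM at 52 weeks against 14459 to 30009 CPM in the younger libraries. The summed inflammatory list stood at 22695, 29177, 9033, 13868, 17384 and 13452 CPM and followed neither age nor treatment in members. Which cluster held the members differed too, with 74 of 100 in cluster 7 in the 52-week untreated, 8 of 16 in the 52-week PBMC-sec and 7 of 51 in the 4 younger libraries, and the part of that in these values was not tested.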

How the data were processed

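Per the file headers, the authors deposited raw UMI counts, 1 matrix of genes by barcodes for each library, from Cell Ranger 5.0.1. The submitters' processing notes name the mouse build mm10 (GRCm38). Per the labels' protocols, whole skin was dissociated with 1 enzyme kit and libraries used the Chromium 3′ kit. Aligner settings and the annotation release are not given in the sources used here.

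A cell was kept from 500 UMIs and 300 genes upward if mitochondrial genes held no more than 10% of its UMIs (Python 3.11.15, Scanpy 1.11.5). Scrublet's automatic threshold gave 0 doublet calls in all 6 libraries, a count that would also be recorded if no threshold was set. It therefore does not show that doublets were absent. None were removed in the main comparison, and removing the highest scores was an alternative. UMIs were summed over the cells of a group, scaled to CPM and compared as log2 ratios with a pseudocount of 5 CPM, without p-values, since a group has 1 library. Leiden clusters came from 2000 variable genes and 30 principal components at resolution 1, with no batch integration. Keratin-rich cells had at least 10 Krt5 and Krt14 UMIs that made up at least 1% of the cell. The members and the 26 gene lists were chosen with earlier results of these data known. Named genes are the 12 highest and 12 lowest ratios in the 52-week untreated library (leaving out those whose CPM in non-fibroblasts exceeded 5 times that in the group where they were high), the 4 most abundant and the extreme members of each list, the rule's genes and the given markers; Ptgis, Fst, Cxcl3, Csf2, Mmp3, Mmp13, Pcolce and other members past 2-fold of a list, and the promoter motifs, were chosen after their values were seen. List symbols Nov and Cyr61 were not matched by name. One member of the growth factor list is not reported here. Scripts were tested on simulated data.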

Additional observations from a re-analysis of the deposited data

How the results depend on the processing

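The share of collagen-high cells in the 52-week untreated library, 2.71%, was 5.94% with a threshold of 1% collagen and 0.760% with 4%. The counts of 74 genes higher and 38 lower in that library moved with the threshold, filter, scaling and cells compared. Genes 2-fold higher numbered 37 at 1% collagen, 410 at 4%, 44 with a pseudocount of 20 CPM, 151 from 10 CPM, 23 from 200 CPM, 263 with cells thinned to 1000 UMIs, 122 as a mean of per-cell CPM, 138 within cluster 7 and 198 within cluster 25. Genes 2-fold lower numbered 296 at 4% collagen, 265 from 10 CPM, 15 from 200 CPM, 306 with thinned cells, 73 as a per-cell mean and 313 within cluster 25. At 1.5-fold 355 were higher and 222 lower, at 4-fold 8 and 9, and 2-fold in all 6 libraries 5 and 8. Of 39 named genes past 2-fold, 38 kept their direction at 1% and at 4% collagen, 34 within cluster 7, 27 within cluster 25 and 33 without cluster 24; all 39 did under the other alternatives computed for single genes. The exceptions were Ube2c (0.73) at 1%, Ifit2 (-0.53) at 4%, Pappa2 (0.19), Rspo3 (0.19), Scube3 (0.69), Serpina3n (-0.52) and Vcan (0.56) within cluster 7, Ccn2 (-0.11), Col23a1 (0.67), Col5a3 (-1.29), Enpp2 (0.83), Pappa2 (0.0095), Postn (-2.39), Rspo3 (0.48), Serpine2 (0.014), Tnmd (-2.87), Tnn (-1.54) and Vcan (0.21) within cluster 25, where Tnmd and Tnn had 0 UMIs in members and Glyat was at 0 in both groups, and Col23a1 (0.86), Enpp2 (0.36), Pappa2 (0.18), Scube3 (0.18), Serpine2 (0.15) and Vcan (0.074) without cluster 24; beyond the changed group of cells the cause was not tested. Near-identical barcodes, doublets, Ptprc, the 3 members outside fibroblast clusters, stricter cell filters, the collagens in the totals and centring left the counts within 1.5 times. The cluster, near-identical barcode and all-library alternatives were chosen after seeing the data. The tests of age and PBMC-sec planned within members, with their alternatives, were not run, since only 2 libraries held the 20 members required. The untreated and PBMC-sec libraries of each age form 3 pairs, and a PBMC-sec fit blocked by age was among these tests left out. Depth limits the members outside the 52-week untreated library most: 8 to 24 cells and 21855 to 102516 UMIs stand behind their values.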

Other observations

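Some genes of no list also stood apart in the collagen-high cells of the 52-week untreated library; they were chosen after their values were seen. Meg3 and Rian, noncoding RNAs of the same imprinted cluster, stood at 481 against 151 CPM (log2 ratio 1.64) and 144 against 69.0 CPM (1.01), with a UMI in 50 and 28 of the 100 cells. Thy1, which encodes a surface glycoprotein used to mark fibroblasts, stood at 701 against 314 CPM (1.15). Spry1 (1.62) and Dusp4 (1.12), feedback inhibitors of receptor kinase and MAP kinase signalling, had 32 UMIs each. Il1rl1, the receptor of interleukin 33 and a leading gene of cluster 1, stood at 362 against 884 CPM (-1.28). Penk, which encodes proenkephalin, stood at 25.4 against 85.1 CPM (-1.57).

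Tagln, Acta2, Myl9 and Tpm2, which mark contractile cells, had UMIs in collagen-high cells of both 52-week libraries and 0 UMIs in the 51 of the 4 younger ones. Des had 1 UMI in the members of each of 2 younger libraries. The younger members held 21855 to 54579 UMIs in a library, against 590535 in the 52-week untreated one. All other fibroblasts of a younger library had 3 to 9 Tagln UMIs, so 0 in so few members is at the floor and shows no difference with age. The whole contractile list summed to 458, 489, 440, 417, 1026 and 2868 CPM in members. In other fibroblasts it summed to 1128, 1692, 1281, 1538, 1228 and 1748 CPM, so members stood higher only in the 52-week PBMC-sec library. Tagln had 121 UMIs in the 16 members of the 52-week PBMC-sec library, 72 of them in 1 cell, with 3 or more UMIs in 4 cells. In the 52-week untreated library 5 of 100 members had 3 or more. Among other fibroblasts 27 of 653 in the 52-week untreated, 9 of 664 in the 52-week PBMC-sec and 0 or 1 in each younger library reached 3 UMIs.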
